A study of Mus musculus with 20 samples.

Results

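Pls1, Gpx6, Olig1 and Clec2h are 4 genes whose RNA was much higher in the livers of progeroid mice than in those of wild type mice. They were chosen by that genotype difference in log2 expression, on the restricted or the control diet. All probe sets annotated with 1 of these symbols alone were taken, which gave 6 of the 28898 probe sets with a single symbol and 4 of 17097 genes. Clec2h has 3 probe sets and the other genes have 1 each. The choice gave no numerical limit on the difference and used these same arrays, so the genotype differences below are descriptions without a test.

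Liver RNA of 20 mice aged 11 weeks was hybridised to Affymetrix arrays, 1 array per animal and 5 animals per group. The groups were progeroid restricted, progeroid control, wild type restricted and wild type control. Progeroid mice were Ercc1Δ/-, carrying a truncated and a null allele of Ercc1 in all cells, and wild type mice were littermates without these alleles. All were F1 C57BL6J/FVB hybrids on AIN93G pellets. Restriction began at 7 weeks of age with 10% less food and reached 30% at 9 weeks, so restricted wild type mice had 2.1 g a day, while control wild type mice ate 3.0 g. Controls fed freely. The labels do not give sex.

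Ercc1 forms, with Xpf, an endonuclease that cuts DNA beside bulky lesions and crosslinks, and its loss leaves DNA damage that makes mice age early. Plastin 1, the product of Pls1, bundles actin filaments in the microvilli of intestinal and other epithelia. Gpx6 encodes a glutathione peroxidase best known from the olfactory epithelium; the mouse enzyme carries cysteine where most relatives carry selenocysteine. Olig1 encodes a basic helix-loop-helix transcription factor of oligodendrocyte development. Clec2h, also called Clr-f, encodes a C-type lectin-like membrane protein whose family binds NKR-P1 receptors of natural killer cells.

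RNA of all 4 genes averaged higher in progeroid than in wild type livers on both diets. The promoter set used held no entry for Olig1, so only the promoters of Pls1, Gpx6 and Clec2h are shown. They are the 250 bases before the transcription start that RefSeq gives on GRCm38.p6, read 5′ to 3′ along the gene. The Pls1 window is chr9:95845280-95845529 on the minus strand. The Gpx6 window is chr13:21311953-21312202 and the Clec2h window is chr6:128662135-128662384, both on the plus strand. For Pls1 and Gpx6 the start used lies inside the outermost limits of the gene in RefSeq. Capitals mark matches to any of the motifs searched.
Pls1: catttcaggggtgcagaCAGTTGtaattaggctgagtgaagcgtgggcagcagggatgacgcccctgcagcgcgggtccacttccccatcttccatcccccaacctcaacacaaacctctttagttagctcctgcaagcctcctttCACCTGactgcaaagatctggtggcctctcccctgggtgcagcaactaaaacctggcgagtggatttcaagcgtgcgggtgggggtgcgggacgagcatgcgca
Gpx6: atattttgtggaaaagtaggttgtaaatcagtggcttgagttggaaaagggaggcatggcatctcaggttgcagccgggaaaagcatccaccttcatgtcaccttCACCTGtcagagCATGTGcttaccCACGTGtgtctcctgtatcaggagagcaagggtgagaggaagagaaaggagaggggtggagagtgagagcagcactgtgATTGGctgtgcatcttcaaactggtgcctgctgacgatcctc
Clec2h: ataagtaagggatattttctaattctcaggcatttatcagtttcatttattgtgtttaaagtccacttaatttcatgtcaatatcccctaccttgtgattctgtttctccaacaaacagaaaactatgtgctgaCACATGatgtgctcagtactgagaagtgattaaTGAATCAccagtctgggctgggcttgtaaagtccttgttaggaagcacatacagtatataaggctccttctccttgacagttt
The windows differ in base composition: 58% of the bases were G or C in Pls1, 50.8% in Gpx6 and 37.2% in Clec2h, and the median over 32851 promoters was 52.4%. On both strands 12 motifs were searched. The E-box CANNTG, a basic helix-loop-helix site, was in all 3 windows and in 66.2% of all promoters. Its stricter form CACGTG, which overlaps it, was in the Gpx6 window and in 6.02% of promoters. The Gpx6 window also held CCAAT as its reverse complement (33.8% of promoters). The Clec2h window held a match to TGANTCA, a loose AP-1 pattern that allows any middle base (6.75%). The matched letters were TGAATCA. The other 8 motifs had no match: TATAAA (12.4% of promoters), GGGCGG (32.7%), TGACNNNGC (10.2%), TTCNNNGAA (7.02%), TTGCNNAA (9.56%), TGTTTAC (3.17%), TTANNTAA (5.43%) and the p53 half-site (7.13%). These matches describe the letters only.

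Ercc1 itself was lower in progeroid livers on both diets. Its brightest probe set averaged 4.80 ± 0.24 in progeroid restricted against 6.15 ± 0.12 in wild type restricted mice, and 5.30 ± 0.15 in progeroid control against 6.54 ± 0.07 in wild type control mice (log2, SD, n = 5 each; limma adjusted p = 1.50e-08 and 8.73e-08). A second of its 4 probe sets fell by 1.37 on the restricted and by 1.60 on the control diet, and the other 2 differed by -0.11 to 0.02 without passing. No pair of arrays held identical values. Hepatocyte markers were bright in every sample. Their mean over the 8 measured lay between 13.04 and 13.22 in progeroid restricted, 13.08 and 13.22 in progeroid control, 13.07 and 13.18 in wild type restricted, and 13.01 and 13.12 in wild type control mice. Of these 8, Ttpa, the vitamin E transfer protein, rose with genotype on the restricted diet (log2 difference 0.28 ± 0.06 SE, limma adjusted p = 0.00296) and Cps1, a urea cycle enzyme, rose with restriction in wild type mice (0.18 ± 0.05, adjusted p = 0.0197). In RNA from a whole tissue, a change in the number of cells of a type and a change in RNA per cell cannot be told apart.

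Pls1 was high in every progeroid liver on either diet, and restriction raised it in wild type livers. In progeroid restricted mice its log2 values were 8.50, 8.15, 7.76, 8.17 and 8.02. In progeroid control mice they were 8.46, 8.31, 7.68, 8.0 and 8.14. These 2 groups overlapped almost completely. Wild type restricted mice had 5.90, 6.52, 6.81, 6.54 and 6.20, and wild type control mice had 4.06, 4.37, 5.46, 4.59 and 5.03. All wild type restricted animals thus lay above all wild type control animals, and all progeroid animals lay above both.

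The genotype difference of Pls1 was 1.73 ± 0.22 SE on the log2 scale (3.31-fold) on the restricted diet and 3.42 ± 0.22 (10.7-fold) on the control diet. By size it had rank 51 of 17097 genes on the restricted diet and rank 2 on the control diet. The restriction effects were not what the genes were picked for, but they share their group means with the genotype differences behind the choice. A low wild type group enlarges a genotype difference and also shifts the restriction effect in wild type livers. A high progeroid group does the same in progeroid livers. The adjusted p-values given for restriction in the chosen genes are therefore not independent of the choice and are read as descriptions. In progeroid livers restricted and control mice differed in Pls1 by 0.00 ± 0.22 (limma adjusted p = 0.995). In wild type livers restriction raised it 3.24-fold. The log2 difference was 1.69 ± 0.22 SE (limma adjusted p = 1.25e-05), and 5 of 5 restricted animals exceeded every control. In the same contrast 9.92% of all genes rose, and 6.9% had every restricted animal above every control. The restriction effect was lower in progeroid than in wild type mice by 1.69 ± 0.31 SE on the log2 scale, a value that is also the difference of the genotype effects used for the choice and was therefore not tested.

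**Figure D1:**
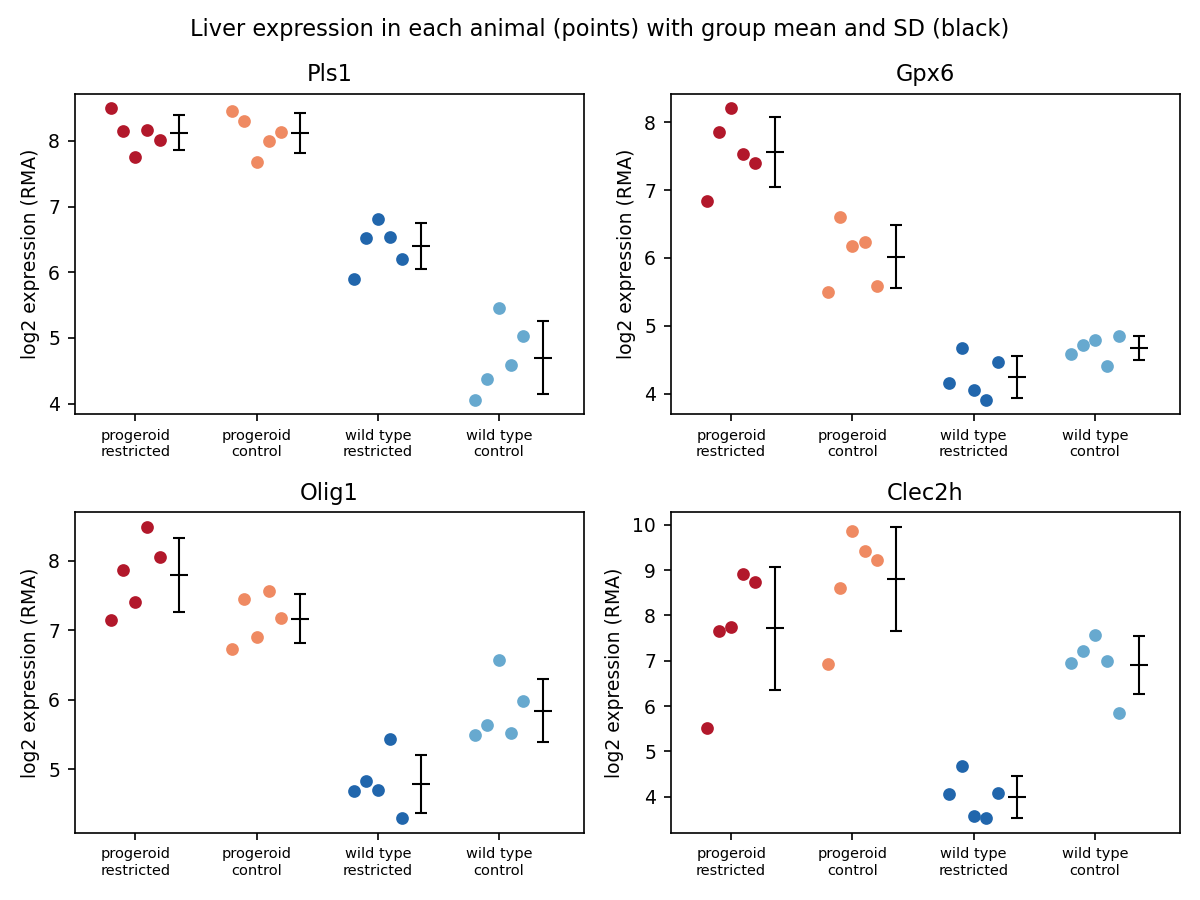
Log2 expression of Pls1, Gpx6, Olig1 and Clec2h in the liver of each animal (points) with the group mean and SD (black bars), for progeroid restricted, progeroid control, wild type restricted and wild type control mice. Progeroid animals are above all wild type animals for Pls1, Gpx6 and Olig1, and Clec2h spreads most, between 5.52 and 8.92 in progeroid restricted mice.

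Gpx6 was highest where both conditions met. In progeroid restricted mice its log2 values were 6.84, 7.85, 8.21, 7.54 and 7.40. Progeroid control mice had 5.50, 6.60, 6.18, 6.23 and 5.59. Every progeroid restricted animal was above every progeroid control animal. Wild type restricted mice had 4.16, 4.67, 4.05, 3.91 and 4.46, and wild type control mice had 4.59, 4.71, 4.79, 4.41 and 4.85. The wild type groups overlapped, and they lay near the array medians of 4.17 to 4.21.

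Restriction raised Gpx6 2.92-fold in progeroid livers, with a log2 difference of 1.55 ± 0.22 SE (limma adjusted p = 0.000153). Gpx6 alone of the 4 genes was called there, where 6.94% of all genes rose and 5.07% fell. Groups did not overlap for 5.19% of genes higher and 3.78% lower with restriction. In wild type livers the restricted minus control difference was -0.42 ± 0.22 (adjusted p = 0.20), which did not pass. The genotype difference was 3.32 ± 0.22 on the restricted diet (9.96-fold, rank 3) and 1.35 ± 0.22 on the control diet (2.55-fold, rank 61). The restriction effect was higher in progeroid than in wild type mice by 1.97 ± 0.31 on the log2 scale, without a test for the reason given for Pls1. Array values near the lower end of the scale understate folds, which touches the wild type side of both folds.

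Olig1 had a similar genotype pattern and fell with restriction in wild type livers. In progeroid restricted mice its log2 values were 7.15, 7.87, 7.41, 8.49 and 8.06. Progeroid control mice had 6.73, 7.45, 6.91, 7.56 and 7.18. The progeroid groups overlapped, with 3 of 5 restricted animals above all controls. Wild type restricted mice had 4.69, 4.83, 4.70, 5.44 and 4.30, and wild type control mice had 5.49, 5.64, 6.58, 5.52 and 5.99. These wild type groups were separated by 0.05, the gap between 5.44 and 5.49.

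In progeroid livers the restricted minus control difference of Olig1 was 0.63 ± 0.25 (log2, SE, limma adjusted p = 0.12), which did not pass. Restriction lowered it 2.07-fold in wild type livers (log2 difference -1.05 ± 0.25, adjusted p = 0.00458). There 12.6% of all genes fell, and 8.77% were lower without overlap. The genotype difference was 3.00 ± 0.25 on the restricted diet (8.01-fold, rank 4) and 1.32 ± 0.25 on the control diet (2.50-fold, rank 64). On the control diet the lowest progeroid animal exceeded the highest wild type animal by 0.15. The restriction effect differed by 1.68 ± 0.36 between the genotypes, progeroid minus wild type, without a test.

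Of the 4 genes, Clec2h fell most with restriction in wild type livers and varied most among progeroid animals. Its brightest probe set gave log2 values of 5.52, 7.65, 7.75, 8.92 and 8.73 in progeroid restricted mice. Progeroid control mice had 6.93, 8.60, 9.87, 9.43 and 9.22. In each of these groups 1 animal lay well below the rest, numbers 362 and 321. Wild type restricted mice had 4.07, 4.68, 3.58, 3.54 and 4.08, and wild type control mice had 6.94, 7.21, 7.56, 6.99 and 5.84. Wild type control animal 405, at 5.84, likewise lay well below the rest of its group. The wild type groups did not overlap, and progeroid control animal 321 had a value that wild type control livers also reached.

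In progeroid livers the restricted minus control difference of Clec2h was -1.09 ± 0.55 (log2, SE, limma adjusted p = 0.22). It was -0.55 without progeroid restricted animal 362 and -1.57 without progeroid control animal 321, and it passed in neither case (adjusted p = 0.52 and 0.055). Restriction lowered Clec2h 7.55-fold in wild type livers (log2 difference -2.92 ± 0.55, adjusted p = 0.000606), and 8 of 17097 genes had a larger difference in this direction. The genotype difference was 3.73 ± 0.55 on the restricted diet (13.2-fold, rank 2) and 1.90 ± 0.55 on the control diet (3.74-fold, rank 19). The difference of the restriction effects, progeroid minus wild type, was 1.82 ± 0.78. It was 2.37 without animal 362 and 1.35 without animal 321. The wild type restricted mean of 3.99 lay below the array medians of 4.17 to 4.21, so folds and ranks against this group may be understated, as for Gpx6.

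The 3 Clec2h probe sets gave the same order of groups. The second brightest probe set lay between 5.26 and 8.83 in progeroid restricted, 6.70 and 9.33 in progeroid control, 2.87 and 3.76 in wild type restricted, and 4.85 and 7.20 in wild type control mice. The third, whose suffix marks probes that may match several transcripts, lay between 4.40 and 7.55, 5.45 and 8.34, 3.52 and 3.90, and 5.02 and 6.24 in the same groups. Animals 362 and 321, and wild type control animal 405, were the lowest of their groups on all 3. In progeroid livers the restricted minus control difference was -0.92 ± 0.57 for the second and -0.90 ± 0.51 for the third (limma adjusted p = 0.38 and 0.33 over all probe sets that are not controls). In wild type livers restriction lowered the second by 3.16 ± 0.57 and the third by 2.15 ± 0.51 on the log2 scale (adjusted p = 0.000567 and 0.00536). After removal of the group means, the pairwise correlations of the probe sets over the 20 animals were 0.95 to 0.97.

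**Figure D2:**
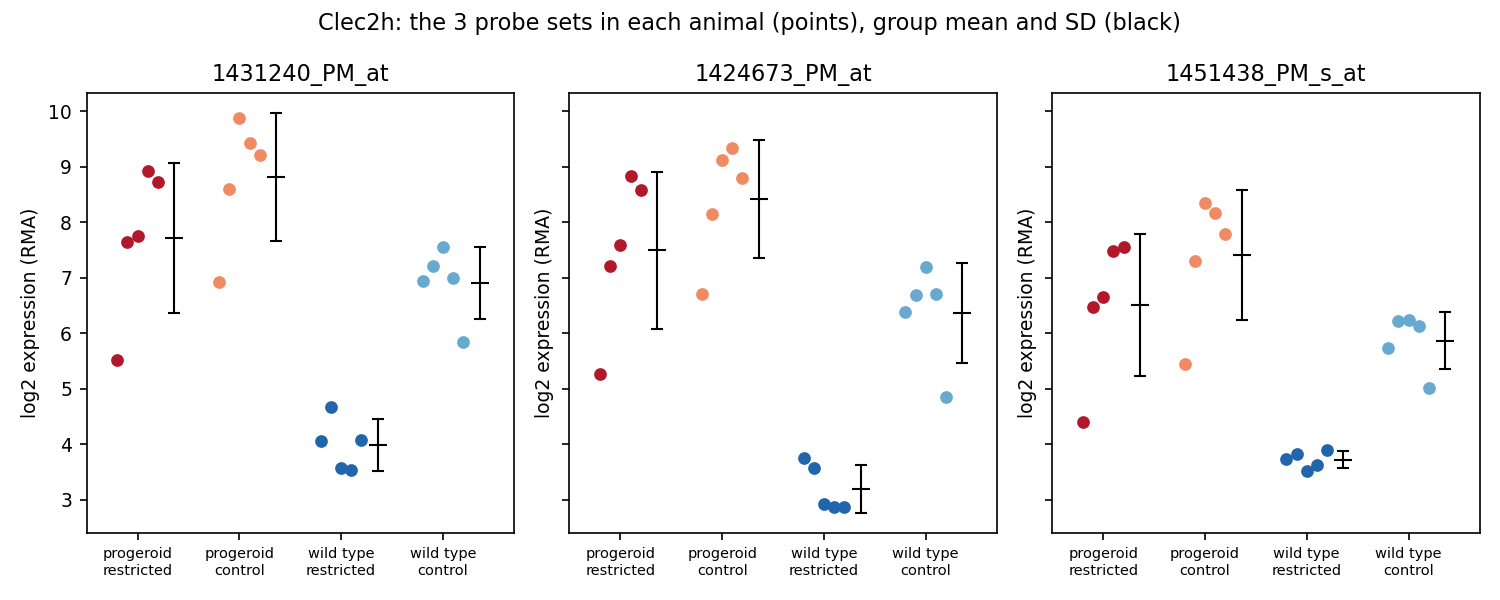
Log2 expression of the 3 Clec2h probe sets in each animal (points) with the group mean and SD (black bars), for progeroid restricted, progeroid control, wild type restricted and wild type control mice. All 3 are lowest in wild type restricted mice. In each progeroid group and in the wild type control group, 1 animal is low on every probe set. In the progeroid restricted group this animal lies at 5.52, 5.26 and 4.40.

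The 4 genes were chosen for their genotype difference, and their values on the 2 diets followed different patterns. The restriction calls share group means with that choice, so they are descriptions, as stated for Pls1. In progeroid livers restriction raised 1 of them (Gpx6), and no other passed. In wild type livers it raised Pls1 and lowered Olig1 and Clec2h. Pls1 alone had a smaller genotype difference on the restricted than on the control diet. Of all genes, 7.95% had every progeroid animal above every wild type animal on the restricted diet and 5.4% on the control diet; 4 and 3 of the chosen genes did. Every progeroid animal was below every wild type animal for 3.94% and 3.95% of genes on these diets. Across both diets together, 1.36% of genes separated all progeroid from all wild type animals, among them Pls1, Gpx6 and Olig1, with gaps of 0.87, 0.65 and 0.15. For Clec2h the lowest progeroid animal was 2.03 below the highest wild type animal. The choice of the genes used these genotype differences, so nothing is read from these counts.

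**Figure D3:**
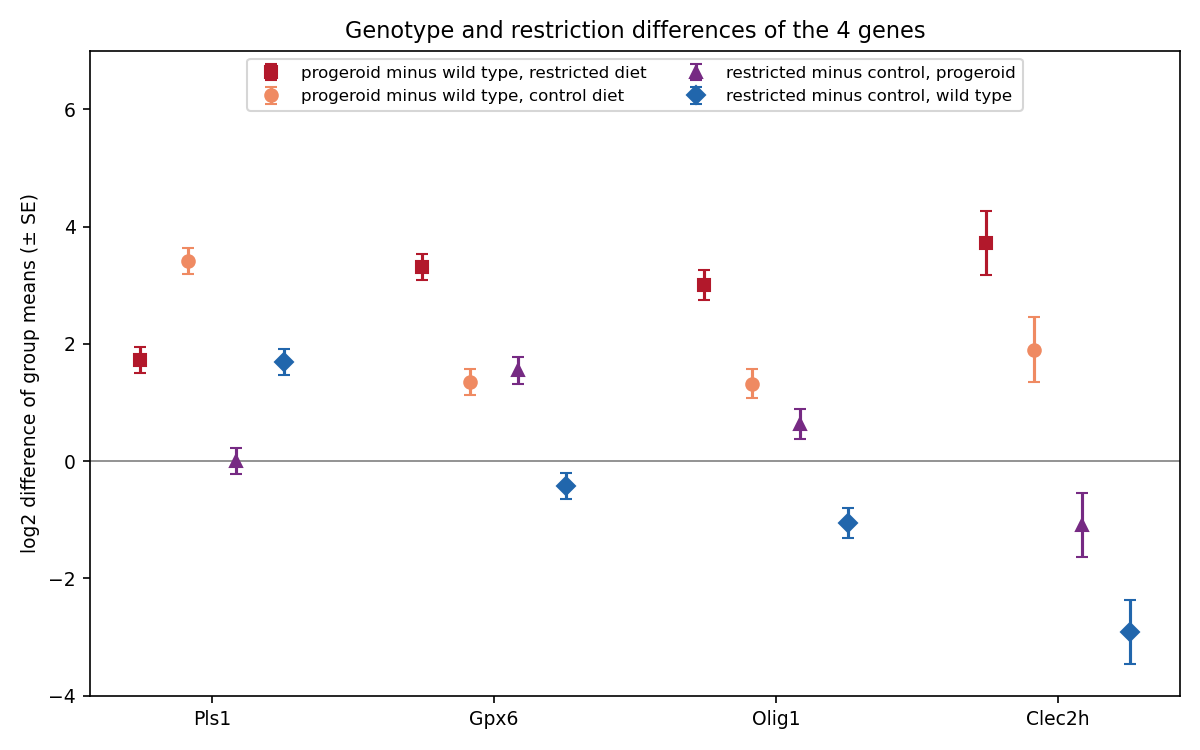
Log2 differences of group means with SE for each gene: progeroid minus wild type on each diet, and restricted minus control in each genotype. Genotype differences are above 0 for all 4 genes, whereas restriction in wild type mice gives 1.69 for Pls1 and -2.92 for Clec2h.

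From animal to animal within groups, the 4 genes varied together only in part. After removal of the group means, Pearson's correlation over the 20 animals was 0.46 for Clec2h with both Gpx6 and Olig1, 0.38 for Pls1 with Olig1 and 0.20 for Gpx6 with Olig1. It was -0.22 for Pls1 with Gpx6 and -0.39 for Pls1 with Clec2h. These values are descriptions: the animals share 4 groups, and each gene rests on the same 20 arrays. The within-group SD, pooled over groups, was 0.97 for Clec2h, 0.44 for Olig1, 0.39 for Gpx6 and 0.38 for Pls1.

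The relatives of the 4 genes are taken by family. For Pls1, the other plastins are Lcp1, the plastin of blood cells, and Pls3, that of many solid tissues. Lcp1 was higher in progeroid than wild type mice on the restricted diet (log2 difference 0.27 ± 0.07 SE, limma adjusted p = 0.00723) and differed by 0.00 ± 0.07 on the control diet (adjusted p = 0.99). Pls3 differed by -0.21 ± 0.08 on the restricted diet (adjusted p = 0.091) and -0.14 ± 0.08 on the control diet (adjusted p = 0.32). Restriction in wild type mice lowered Lcp1 by 0.51 ± 0.07 (adjusted p = 1.56e-05) and raised Pls3 by 0.27 ± 0.08 (adjusted p = 0.0225).

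Among 18 measured plastins, actin bundlers and microvillus proteins, 8 rose and 0 fell with the progeroid genotype on the restricted diet, where 11.8% of all genes rose and 5.44% fell. The median log2 difference was 0.16, against 0.00 over all genes. Cdhr2, a cadherin of the intermicrovillar links, rose by 0.44 ± 0.08 (limma adjusted p = 0.000777) and Eps8, an actin capping and bundling protein, by 0.49 ± 0.12 (adjusted p = 0.00675). Cdhr2 averaged only 3.31 in progeroid restricted and 2.87 in wild type restricted mice, below the array medians of 4.17 to 4.21. On the control diet 3 rose and 1 fell, against 6.7% and 4.32% of all genes, with a median of 0.04 against -0.01. Msn, the membrane linker moesin, rose by 0.36 ± 0.08 (adjusted p = 0.00613) and Baiap2l1, which bends membranes with actin, fell by 0.53 ± 0.15 (adjusted p = 0.0277). With restriction 2 rose and 2 fell in progeroid mice, against 6.94% and 5.07% of all genes, and 3 rose and 4 fell in wild type mice, against 9.92% and 12.6%. In progeroid mice Baiap2l1 rose by 0.68 ± 0.15 (adjusted p = 0.00577) and Eps8 by 0.48 ± 0.12 (adjusted p = 0.0119). In wild type mice Cdhr5, another microvillus cadherin, fell by 0.53 ± 0.14 (adjusted p = 0.0103). Vil1, the defining microvillus protein villin, passed in none of the 4 comparisons, and its differences lay between -0.09 and 0.18.

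Of the glutathione peroxidases, Gpx7, an endoplasmic reticulum enzyme, was nearest to Gpx6 in its genotype difference. It rose by 1.20 ± 0.15 (2.29-fold, limma adjusted p = 2.09e-05) on the restricted diet and by 0.99 ± 0.15 (1.98-fold, adjusted p = 0.000205) on the control diet. Its restricted minus control difference was 0.29 ± 0.15 in progeroid mice (adjusted p = 0.25) and 0.08 ± 0.15 in wild type mice (adjusted p = 0.77). Gpx8, also of the endoplasmic reticulum, rose on the control diet (0.44 ± 0.11, adjusted p = 0.0111), and Gpx1, the main cytosolic enzyme of liver, rose on the restricted diet (0.20 ± 0.05, adjusted p = 0.0122). Gpx2, Gpx3, Gpx4 and Gpx5 passed in neither genotype comparison, with differences from -0.19 to 0.34.

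Over 14 measured glutathione peroxidases and enzymes of the glutathione cycle, 4 rose and 1 fell with genotype on the restricted diet (median 0.17), against 11.8% and 5.44% of all genes. On the control diet 2 rose and 0 fell (median 0.04), against 6.7% and 4.32%. Gclc, the catalytic subunit that limits glutathione synthesis, rose by 0.64 ± 0.13 on the restricted diet (limma adjusted p = 0.00218). With restriction 1 rose and 0 fell in progeroid mice, against 6.94% and 5.07% of all genes. It was the glutaredoxin Glrx (0.52 ± 0.12, adjusted p = 0.00568). In wild type mice 1 rose and 3 fell, against 9.92% and 12.6% of all genes, Glrx by 0.63 ± 0.12 upward (adjusted p = 0.000539) and Gclc by 0.97 ± 0.13 downward (adjusted p = 2.73e-05).

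**Figure D4:**
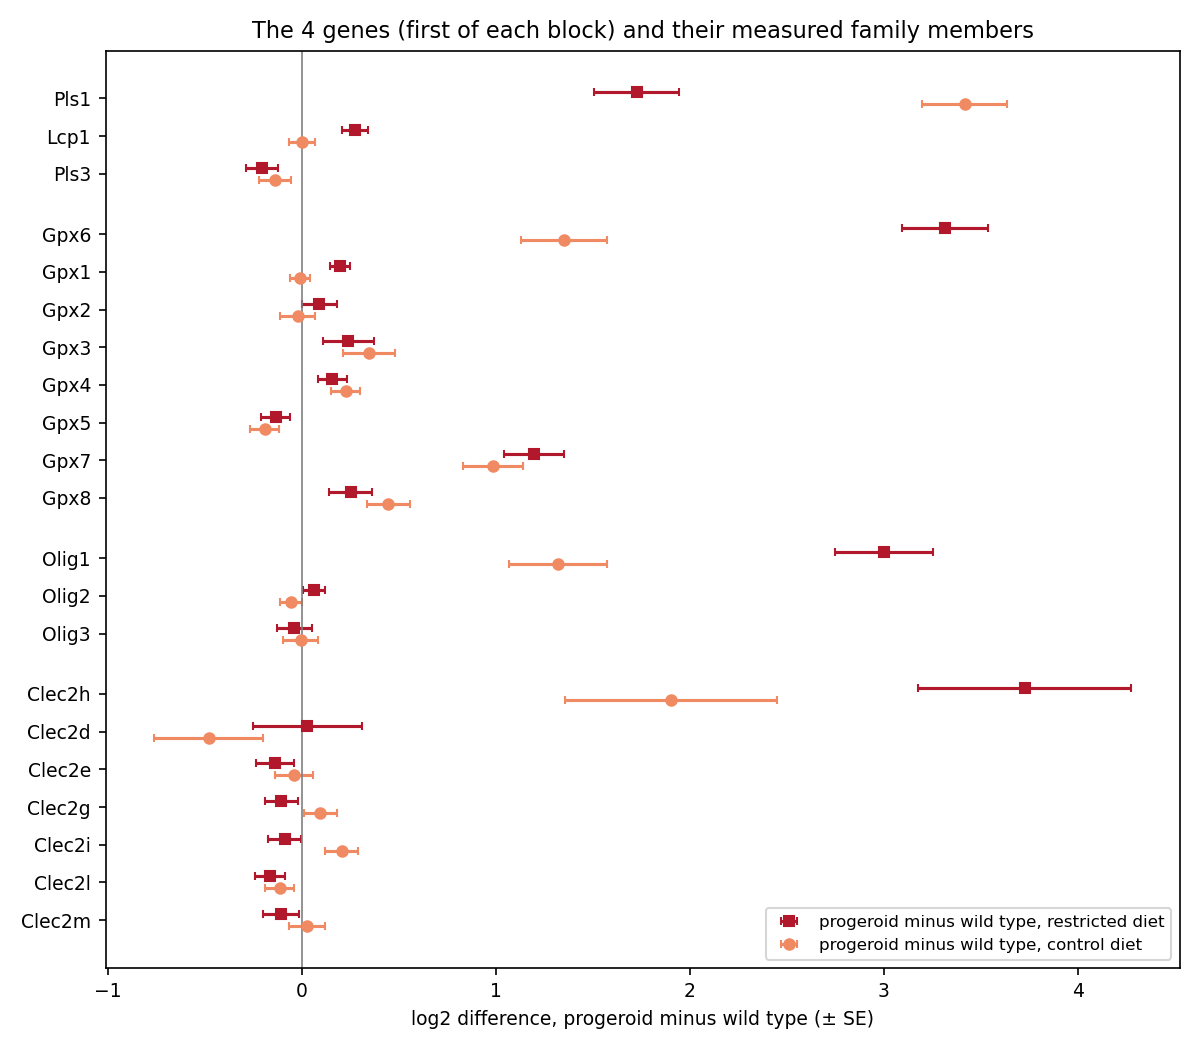
Log2 differences, progeroid minus wild type, with SE on the restricted diet (squares) and control diet (circles) for Pls1, Gpx6, Olig1 and Clec2h, each followed by its measured family members. The chosen genes lie between 1.32 and 3.73, and of the relatives only Gpx7 comes near this range, at 1.20 and 0.99.

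For Olig1, the family members Olig2 and Olig3 stayed at the lower end of the scale. Olig2 averaged 2.65 ± 0.09 in progeroid restricted, 2.56 ± 0.04 in progeroid control, 2.58 ± 0.07 in wild type restricted and 2.62 ± 0.08 in wild type control mice (SD, n = 5 each). Olig3 differed between the genotypes by -0.04 ± 0.09 on the restricted and -0.01 ± 0.09 on the control diet (SE, limma adjusted p = 0.82 and 0.98). Of 14 measured genes of the OLIG family and the oligodendrocyte lineage, 0 rose or fell with genotype on either diet. Over all genes 11.8% rose and 5.44% fell on the restricted diet, and 6.7% and 4.32% on the control diet. Among the 14 genes the lowest limma adjusted p was 0.38 on the restricted and 0.14 on the control diet. At an unadjusted p under 0.05 there were 0 and 3 of them, and the median log2 differences were -0.04 and -0.03. Their mean per animal lay between 3.67 and 3.77 in progeroid restricted, 3.70 and 3.81 in progeroid control, 3.70 and 3.73 in wild type restricted and 3.74 and 3.86 in wild type control mice. With restriction Sox10, a regulator of glial cells, fell by 0.44 ± 0.08 in progeroid mice (adjusted p = 0.000933) and by 0.28 ± 0.08 in wild type mice (adjusted p = 0.012). Pdgfra, a growth factor receptor that fibroblasts also carry, rose with restriction by 0.27 ± 0.08 in wild type mice (adjusted p = 0.0245). It averaged 3.62 in wild type restricted and 3.35 in wild type control mice, below the array medians of 4.17 to 4.21.

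For Clec2h, 10 Clec2 lectins and Klrb1 receptors were measured and 0 passed in any of the 4 comparisons by limma. Over all genes 11.8% rose and 5.44% fell with genotype on the restricted diet, and 6.7% and 4.32% on the control diet. With restriction 6.94% rose and 5.07% fell in progeroid mice, and 9.92% and 12.6% in wild type mice. Of the 10 genes, 1 had an unadjusted p under 0.05 with genotype on the restricted diet and 2 on the control diet. With restriction 0 did in progeroid and 4 in wild type mice. The median genotype difference was -0.08 on the restricted and -0.01 on the control diet. Clec2d, another lectin of the family, averaged 10.39 ± 0.17 in progeroid restricted against 10.36 ± 0.37 in wild type restricted mice, and 10.33 ± 0.84 in progeroid control against 10.81 ± 0.31 in wild type control mice. The other Clec2 genes (Clec2e, Clec2g, Clec2i, Clec2l and Clec2m) differed between the genotypes by -0.17 to 0.20. Of 13 measured markers of natural killer and innate lymphoid cells, 1 rose with genotype on the restricted diet, against 11.8% of all genes. It was Klrd1, a receptor subunit (0.25 ± 0.08, limma adjusted p = 0.0455). Klrd1 averaged 3.88 in progeroid restricted and 3.63 in wild type restricted mice, below the array medians of 4.17 to 4.21. On the control diet 0 of the 13 rose, against 6.7% of all genes (2 had an unadjusted p under 0.05). Klrk1, an activating receptor, fell with restriction by 0.74 ± 0.18 in wild type mice (adjusted p = 0.00558). Its mean was 4.70 in wild type control and 3.96 in wild type restricted mice, the latter below the array medians. Gzma, a granzyme, fell with restriction by 0.27 ± 0.07 in progeroid mice (adjusted p = 0.016) and by 0.43 ± 0.07 in wild type mice (adjusted p = 0.000186). Its group means lay between 3.23 and 3.68, also below the array medians.

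Markers of other cells in which these genes are known were also read. Of 7 cholangiocyte markers 1 rose with genotype on each diet, against 11.8% of all genes on the restricted and 6.7% on the control diet. This marker was Tff3, a secreted trefoil peptide of mucous epithelia. It averaged 7.71 ± 0.53 in progeroid restricted against 5.30 ± 0.52 in wild type restricted mice (limma adjusted p = 0.000168) and 8.99 ± 0.48 in progeroid control against 6.50 ± 1.03 in wild type control mice (adjusted p = 0.000173). Restriction lowered Tff3 by 1.28 ± 0.38 in progeroid mice (adjusted p = 0.0335) and by 1.19 ± 0.38 in wild type mice (adjusted p = 0.0293). The defining keratins Krt7 and Krt19 differed between the genotypes by -0.12 to 0.17. The cholangiocyte mean per animal lay between 4.15 and 4.54 in progeroid restricted, 4.39 and 4.67 in progeroid control, 3.87 and 4.06 in wild type restricted and 3.92 and 4.26 in wild type control mice. Tff3 carried most of the genotype shift of this mean: the other 6 markers differed by -0.12 to 0.28 and did not pass. Of 7 enterocyte markers 1 rose on each diet, against the same shares of all genes. Fabp2 (0.66 ± 0.17, adjusted p = 0.0101) rose on the restricted and Apoa4 (0.89 ± 0.22, adjusted p = 0.0107) on the control diet. Fabp2 averaged 11.64 in progeroid restricted against 10.97 in wild type restricted mice. Apoa4 averaged 11.86 in progeroid control against 10.97 in wild type control mice. The rest of the enterocyte markers had group means of 3.23 to 3.93, below the array medians of 4.17 to 4.21. With restriction in wild type mice Apoa4 rose by 1.66 ± 0.22 (adjusted p = 1.58e-05) and Fabp2 fell by 1.03 ± 0.17 (adjusted p = 0.00019). Of 5 olfactory neuron markers 1 rose on each diet, again against the same shares of all genes. Gnal, a G protein subunit, rose on both (0.50 ± 0.12, adjusted p = 0.00686, and 0.40 ± 0.12, adjusted p = 0.0379), whereas Omp, the defining marker, lay between 3.35 and 3.47 in every group mean.

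Some macrophage markers rose with genotype in the same livers, more of them on the restricted diet. Of 8 Kupffer cell and macrophage markers 6 rose on the restricted diet, against 11.8% of all genes, and 2 on the control diet, against 6.7%. Their median differences were 0.68 and 0.45. Their mean per animal lay between 7.90 and 8.66 in progeroid restricted against 7.05 and 7.66 in wild type restricted mice, and between 7.70 and 8.39 in progeroid control against 7.48 and 7.93 in wild type control mice. Clec4f, a Kupffer cell lectin, rose by 0.89 ± 0.13 (limma adjusted p = 6.51e-05) on the restricted and 0.48 ± 0.13 (adjusted p = 0.017) on the control diet. Cd68, a lysosomal protein, rose by 1.19 ± 0.25 on the restricted diet (adjusted p = 0.00183), and Vsig4, a complement receptor, by 0.59 ± 0.13 on the control diet (adjusted p = 0.00356). Csf1r and Timd4 passed on neither diet. On the restricted diet Csf1r differed by 0.28 ± 0.15 (adjusted p = 0.22) and Timd4 by 0.49 ± 0.18 (adjusted p = 0.064). On the control diet they differed by -0.003 ± 0.15 (adjusted p = 0.99) and 0.13 ± 0.18 (adjusted p = 0.71). With restriction Marco, a scavenger receptor, rose by 1.15 ± 0.36 in progeroid mice (adjusted p = 0.0425). In wild type mice Adgre1, a macrophage surface receptor, fell by 0.94 ± 0.14 (adjusted p = 6.45e-05) and Clec4f by 0.72 ± 0.13 (adjusted p = 0.000344). The part of macrophages or of the other cell types in the differences of the 4 genes was not tested.

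RNA integrity, as the 3′ minus 5′ difference of the Gapdh control probe sets, was 0.81 ± 0.24 in progeroid restricted against 0.76 ± 0.12 in wild type restricted mice (log2, SD, n = 5; two-sided exact permutation p = 0.71, adjusted over 4 comparisons 0.71). It was 0.93 ± 0.28 in progeroid control against 0.66 ± 0.06 in wild type control mice (exact permutation p = 0.0476, adjusted 0.19). With this difference as a covariate, the control-diet genotype differences were 3.40 for Pls1, 1.55 for Gpx6, 1.29 for Olig1 and 1.49 for Clec2h.

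The genes next to the 4 on their chromosomes (by RefSeq order on GRCm38.p6, up to 3 measured protein-coding genes on each side, 24 in all) were read in the same fit. With genotype 3 rose and 0 fell on the restricted diet, where 11.8% of all genes rose and 5.44% fell. On the control diet 3 rose and 0 fell, against 6.7% and 4.32% of all genes. Beside Pls1, Pcolce2, a collagen processing enhancer, rose by 0.86 (limma adjusted p = 0.00297) on the restricted and 0.62 (adjusted p = 0.0373) on the control diet, while Trpc1 on the same side, the nearest measured gene, differed by 0.22 (adjusted p = 0.11) and 0.10 (adjusted p = 0.55). Atr, the DNA damage kinase on the other side, rose by 0.37 on the control diet (adjusted p = 0.0243). Beside Gpx6, its relative Gpx5 differed by -0.14 (adjusted p = 0.24) and -0.19 (adjusted p = 0.11) on the restricted and control diets, and the zinc finger gene Zscan12 rose by 0.66 (adjusted p = 0.000552) on the restricted diet.

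Beside Olig1, the interferon receptor genes Ifnar2 and Ifnar1 did not pass with genotype, and Il10rb, a receptor subunit between them, rose by 0.59 on the restricted diet (limma adjusted p = 0.000816). Beside Clec2h, A2ml1 rose by 0.75 on the control diet (adjusted p = 0.0107), and the receptor genes Klrb1a, Klrb1b and Klrb1c differed by -0.18 to 0.10 without passing. Restriction called 2 neighbours higher and 1 lower in progeroid mice, against 6.94% and 5.07% of all genes. In wild type mice it called 2 higher and 5 lower, against 9.92% and 12.6%. None of the neighbours of Clec2h fell by more than 0.54 in wild type mice, against 2.92 for Clec2h.

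The genes most like each of the 4 were ranked by Pearson's correlation over the 20 animals, which follows the group differences the genes were picked for and is a description. For Pls1 they were Fam118a (r = 0.96), the double-stranded RNA sensor Tlr3 (0.95), Tceal8 (0.94), the interferon-inducible Ifi27l2b (0.93) and the lipoprotein lipase activator Apoc2 (0.92). Their group means followed Pls1 only in part. Ifi27l2b averaged 7.59 in progeroid restricted against 6.78 in progeroid control mice, whereas Pls1 averaged 8.12 in both groups. Tlr3 averaged 6.87 in progeroid restricted, 6.96 in progeroid control, 6.35 in wild type restricted and 6.01 in wild type control mice. For Gpx6 they were the interferon-inducible GTPase Gbp3 (0.94), the exporter Abcc1 (0.93), the matrix protein Postn (0.93), the Mediator subunit Med9 (0.92) and the LIM protein Csrp1 (0.92). Gbp3 averaged 8.05, 7.38, 6.05 and 6.43 in the same groups. Without progeroid restricted animal 366, which had the highest Gpx6, 1 of these 5 genes remained among the 5 most like it.

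For Olig1 the list was Fam241b (r = 0.95), Micu2, a regulator of mitochondrial calcium uptake (0.93), Tdrp (0.93), the lipid-binding protein Osbpl3 (0.93) and the B cell adaptor Blnk (0.93). Osbpl3 averaged 6.80 in progeroid restricted, 6.02 in progeroid control, 4.22 in wild type restricted and 4.60 in wild type control mice. For Clec2h it was the interferon-inducible GTPase Iigp1 (0.96), Echdc2 (0.95), the phytanic acid oxidation enzyme Phyh (0.94), coagulation factor F11 (0.94) and the glucuronosyltransferase Ugt2b35 (0.93). Iigp1 averaged 12.65, 12.82, 11.74 and 12.50 in the same groups, with a span far below that of Clec2h.

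**Figure D5:**
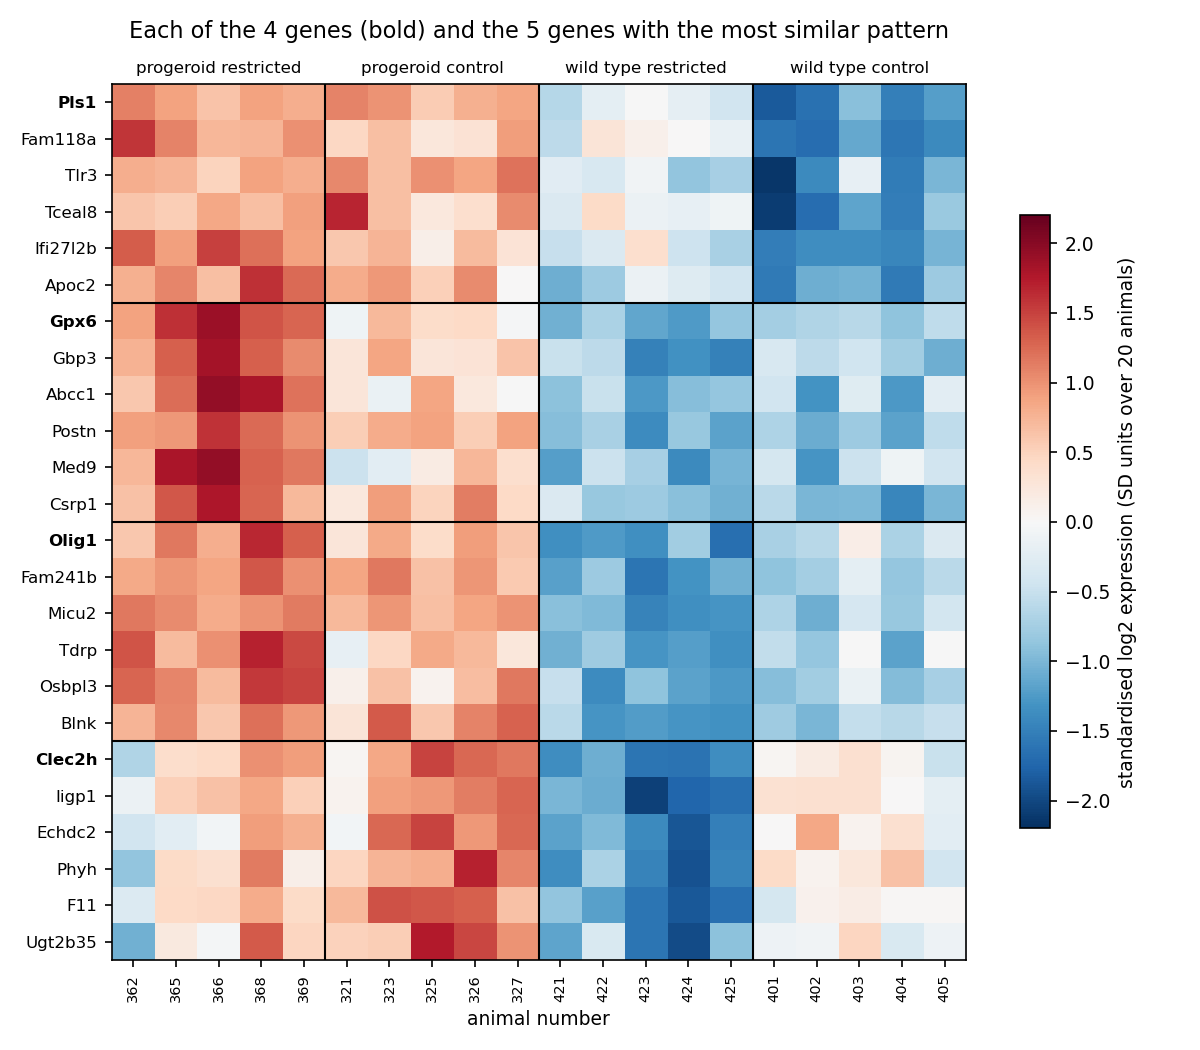
Standardised log2 expression (SD units over 20 animals) of Pls1, Gpx6, Olig1 and Clec2h (bold) and the 5 genes most like each, by animal number, in progeroid restricted, progeroid control, wild type restricted and wild type control mice. Clec2h and its 5 genes are below their own means in all wild type restricted mice and in progeroid restricted animal 362, where Clec2h was 5.52.

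Without the group differences, other genes came first. Over deviations from the group means, Pls1 was closest to Cks2, a subunit of cyclin-dependent kinases (r = 0.81), Parp2, a DNA break sensor (0.81), and the transcription factor Mitf (0.81). Gpx6 was closest to Wipf1, an actin regulator (0.87), Gpsm3 (0.84) and Zfp655 (0.84). Olig1 had the weakest partners, Enkd1 (0.78), Actl9 (0.76) and B3gat1 (0.76). Over the 20 animals Enkd1 lay between 3.00 and 3.40, Actl9 between 3.59 and 4.18 and B3gat1 between 4.03 and 4.56. These levels are near or below the array medians of 4.17 to 4.21. Clec2h was closest to the GTPase Nras (0.88), the hyaluronidase Hyal1 (0.85) and Acadsb, an enzyme of branched-chain acyl-CoA breakdown (0.83). Iigp1 kept 0.81 and Ugt2b35 0.83 with Clec2h on this measure. Genes with provisional symbols (ending in Rik, or Gm, LOC, BC or AI and a number) were left out of both rankings. Each gene named was picked as among the highest of the remaining correlations, out of 17097 genes, over 20 animals, and none carries a test.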

How the data were processed

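Liver RNA of 20 mice was measured on Affymetrix arrays. The authors deposited log2 expression values per probe set, with RMA as the tool and no version named, per the submitters' processing notes; scanner files were not used here. The table held 45141 probe sets with values from 2.19 to 14.51 and array medians from 4.17 to 4.21. Groups came from the sample labels. Gene names came from the platform annotation, in which 28898 probe sets had 1 symbol, 551 several and 15588 none; 28689 of the first were found in RefSeq by Entrez ID and 0 symbols changed. The 104 control probe sets were left out of the fits.

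Each of 17097 genes was represented by its probe set with the highest mean. Differences of group means were fitted with limma 3.58.1 (R 4.3.3) on the 20 arrays together, with 1 mean per group, no covariate and Benjamini-Hochberg adjustment over all genes for each comparison (threshold 0.05, two-sided). The fit was tested on simulated data. The labels number the animals, so p-values measure the spread between animals; the number of arrays limits the precision.

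The 4 genes and the gene lists were chosen with earlier results of these data known. Besides the 4 genes, the text names in each list and comparison up to 2 passing genes of smallest adjusted p, the plastin, peroxidase, OLIG and Clec2 relatives, the defining markers of a list, the 5 most like genes over animals and the 3 over deviations, and the neighbours. Provisional symbols were left out of the rankings of likeness. Vil1, Krt7, Krt19 and Omp were added as defining markers after their values were seen, as were the macrophage markers Csf1r and Timd4 that did not pass. Alternatives changed the centring, normalization, probe set rule, filter, moderation, weights, covariate, arrays in the fit, and left out each animal.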

Additional observations from a re-analysis of the deposited data

How the results depend on the processing

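None of the 4 genes gained or lost a call for restriction under any alternative run, and the genotype differences kept their direction throughout. The value of Pls1 for restriction in progeroid livers, near 0, turned to -0.033 with quantile normalization and to -0.046 with array weights, and ranged from -0.11 to 0.095 when each animal was left out (limma adjusted p = 0.831 to 0.996). With the Gapdh covariate 473 genes, against 738, were lower with genotype on the control diet. Genes lower with restriction in progeroid livers numbered 867, and 561 to 920 when each animal was left out, with 561 without progeroid control animal 323. The cause was not tested. Of the 5 genes most like each of the 4, Spearman's correlation shared 1. Leaving out each animal shared 3 to 5 for Pls1, Olig1 and Clec2h and 1 to 5 for Gpx6, with 1 without progeroid restricted animal 366. No paired analysis was made, because each animal belongs to 1 group. Litter was not part of any fit. The fit restricted to the groups compared gives no difference of restriction effects. With 5 animals per group, the spread of Clec2h among progeroid animals limits its restriction effect there most.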
